A study of Mus musculus with 23 samples.

Results

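The comparison described here set cardiac macrophages that carried a Cre recombinase directed at Smad7 (MyS7KO at baseline, 3 libraries) against those of S7fl/fl mice (3 libraries), both from uninjured hearts. These 6 libraries, chosen by genotype and time point as the labels give them, belong to a series of 23. The others came from hearts with a coronary artery tied off for 3 or 7 days, which causes an infarct. They entered the low-count filter, the scaling, the mean level of each gene and the estimate of spread. Their own values are used only where day 3 or day 7 is named below. All mice were C57BL/6, and an age was not given in the labels. Both genotypes carried loxP-flanked Smad7 alleles (Smad7 fl/fl). MyS7KO mice also carried LyzM-Cre, in which Cre is driven from the Lyz2 (lysozyme M) locus and acts in macrophages, monocytes and neutrophils alike. The S7fl/fl mice were littermates without Cre, so presence of Cre and loss of Smad7 went together and cannot be told apart. Cells were enriched magnetically as Ly6G- CD11b+. Whether the libraries stem from different hearts is not stated, and p-values reflect only how far these samples spread, which may be technical.

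Smad7 is an inhibitory Smad. TGF-beta binds type II and type I receptor kinases, which phosphorylate Smad2 and Smad3. These join Smad4 and enter the nucleus, where they switch on target genes, Smad7 among them. Smad7 in turn binds the receptors and recruits ubiquitin ligases to them, which closes a negative feedback loop. Macrophages of the resting heart are mostly long-lived resident cells that clear dying cells and debris, with a smaller share renewed from blood monocytes, and TGF-beta is known to restrain their inflammatory activity.

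The 6 libraries held 16.4 to 21.0 M counts on genes, and 16545 of 54532 genes passed the low-count filter. Macrophage transcripts were abundant in each: the summed level of 9 macrophage markers was 8288 to 11099 CPM (counts scaled to a common library size with TMM factors). The neutrophil antigen gene Ly6g stood at 0 to 0.128 CPM, where 3 counts correspond to 0.124 to 0.170 CPM. Transcripts of other heart cells were present as well, with 11 endothelial markers summing to 1500 to 3195 CPM and 10 fibroblast markers to 1281 to 2754 CPM. MyS7KO library 3 stood apart from the rest. Its mean distance to the other 5 (root mean square of log2 CPM over 12439 genes) was 0.477 against 0.366 to 0.432 for the others, and it had the lowest endothelial, fibroblast and mural sums and the highest macrophage sum. MyS7KO library 1 and S7fl/fl libraries 1 and 2 carried Xist, which is expressed from the inactive X chromosome of females, and the other 3 carried Y-linked transcripts. Of the day 7 libraries used for comparison below, those of MyS7KO all came from females by these transcripts and those of S7fl/fl all from males, so a genotype difference at day 7 cannot be told apart from one between the sexes.

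Across the transcriptome 2 genes passed the test, 0.0121% of those tested (edgeR quasi-likelihood, Benjamini-Hochberg adjusted p under 0.05): Lyz1, higher in MyS7KO, and Lyz2, lower (0.00604% each way). DESeq2 and limma-voom each called 2 genes as well. A further count at an unadjusted p under 0.05 gave 375 genes, or 2.27%, of which 140 were higher and 235 lower. The 95% interval of the log2 difference lay within 2-fold either way for 11368 genes (68.7%) and within 1.5-fold for 7811 (47.2%). Among the 5330 genes with a mean log2 CPM of at least 5, 96.2% lay within 2-fold. Distances between libraries overlapped within and between the genotypes. They ran from 0.25 to 0.542 between genotypes, from 0.312 to 0.515 within MyS7KO and from 0.397 to 0.404 within S7fl/fl.

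**Figure D1:**
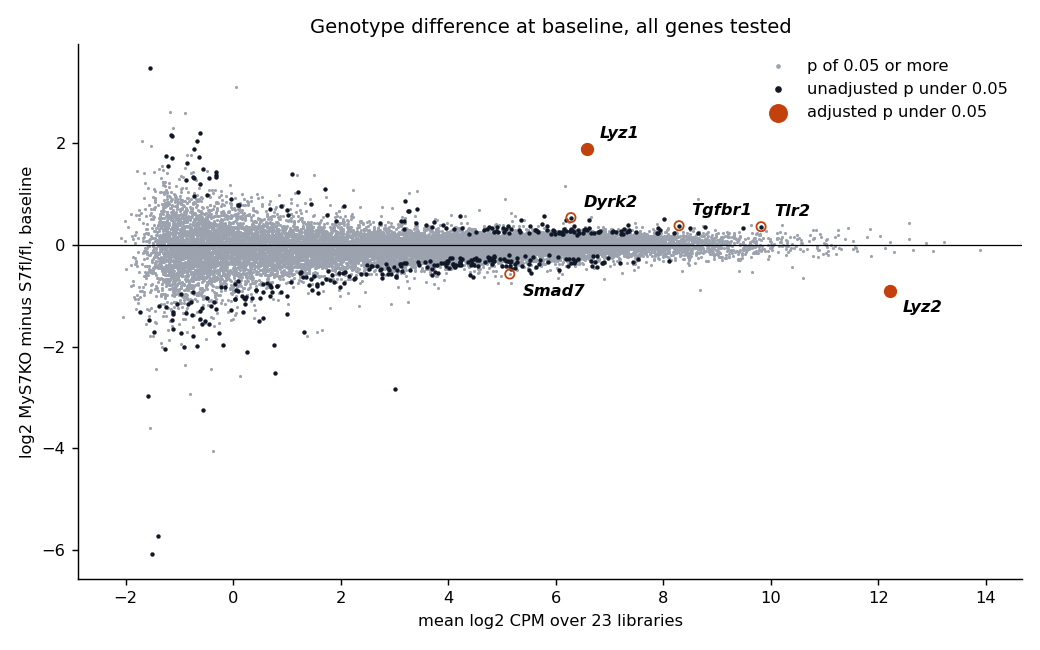
Each point is 1 of the 16545 genes tested, with its mean log2 CPM over all 23 libraries on the horizontal axis and the log2 difference of MyS7KO minus S7fl/fl at baseline on the vertical axis. Lyz1 (1.88) and Lyz2 (-0.90) are the filled orange points, Smad7, Dyrk2, Tlr2 and Tgfbr1 are circled, and black points have an unadjusted p under 0.05.

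Smad7, the targeted gene, read 45.6, 48.7 and 19.7 CPM in MyS7KO libraries 1 to 3 and 55.1, 61.2 and 53.1 CPM in S7fl/fl libraries 1 to 3. The groups did not overlap, but libraries 1 and 2 of MyS7KO lay close under the lowest S7fl/fl library and only library 3 was far below. The log2 difference was -0.57 ± 0.28 (standard error), with a 95% interval from -1.16 to 0.02, and it did not pass the test (edgeR quasi-likelihood adjusted p = 0.999). Without MyS7KO library 3 the difference was -0.26 (edgeR adjusted p = 1). The counts cover the whole gene, and which exons are removed is not stated in the labels, so transcripts that retain the other exons stay in these values.

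Markers of vessel and connective tissue cells, in which Lyz2 is not known to be active, were lowest in the same library. The endothelial sum was 3186, 2618 and 1500 CPM in MyS7KO libraries 1 to 3 and 2382, 2985 and 3195 CPM in the S7fl/fl libraries. Within that list of 11, all detected in each library, the junction protein gene Cdh5 read 410, 370 and 195 CPM in MyS7KO and 296, 366 and 429 CPM in S7fl/fl. Smad6, the other inhibitory Smad and a gene with high levels in endothelium, read 28.2, 19.5 and 7.93 CPM in MyS7KO and 22.5, 21.4 and 19.2 CPM in S7fl/fl. The fibroblast sum was 2552, 2214 and 1281 CPM against 2754, 2152 and 2138, and the mural sum 1580, 1796 and 1086 against 1332, 1927 and 1863. Thus library 3, with the least Smad7, was lowest for each of these as well. What share of the Smad7 reads came from such cells was not tested, and in bulk RNA fewer cells of a type and less RNA per cell cannot be told apart. With the log2 endothelial sum as a covariate, an alternative chosen after seeing the data, the Smad7 difference was -0.50 (edgeR adjusted p = 1). Its unadjusted edgeR p was 0.0175 in that fit and 0.056 in the main fit. The covariate is a marker sum from the same libraries, so nothing about the source of the Smad7 reads is read from that fit.

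At day 3 and day 7, in separate libraries, Smad7 was farther apart between the groups, of which those at day 7 also differed in sex. MyS7KO read 10.5 to 19.9 CPM at day 3 against 30.4 to 42.0 in S7fl/fl, and 16.0 to 33.4 at day 7 against 57.4 to 70.2. Smad7 was not called at either time (edgeR adjusted p = 0.11 at day 3 and 0.0702 at day 7). The difference at baseline minus that at day 3 was 0.68 ± 0.36 (edgeR adjusted p = 0.878) and minus that at day 7 0.84 ± 0.39 (adjusted p = 0.877), so neither passed, and the latter joins genotype with sex.

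**Figure D2:**
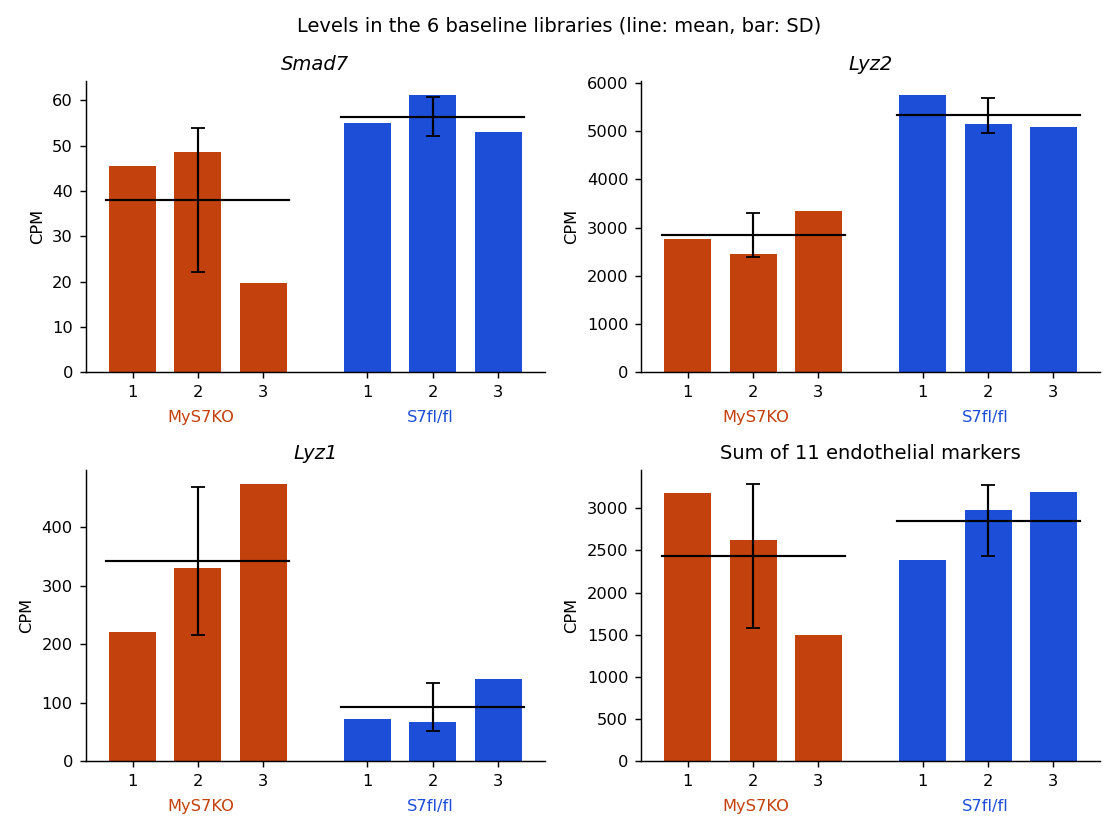
Bars give the CPM of Smad7, Lyz2, Lyz1 and the summed CPM of 11 endothelial markers in each of the 6 baseline libraries, numbered 1 to 3 within MyS7KO (orange) and S7fl/fl (blue); horizontal lines are group means and error bars the SD (n = 3). MyS7KO library 3 holds the lowest Smad7 (19.7) and the lowest endothelial sum (1500), while for Lyz1 and Lyz2 all 3 MyS7KO libraries lie on 1 side of the S7fl/fl libraries.

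The 2 genes that passed are neighbours and close copies. Lyz2 encodes lysozyme M, the enzyme that macrophages and neutrophils use to cut bacterial cell walls, and its locus holds the Cre insertion. Lyz1 encodes lysozyme P, known best from Paneth cells of the gut. Both lie on the minus strand of chromosome 10 with 4 exons each, their starts 10.5 kb apart; the coding parts span 117278121 to 117282242 for Lyz2 and 117288583 to 117292838 for Lyz1 (GRCm38). Their coding sequences have the same length of 447 bases and differ at 22, an identity of 95.1%. The first 300 bases, which hold 20 of the 22, are shown because how reads are shared out between these genes depends on the differing bases; these are in capitals (GENCODE transcripts).
Lyz1, first 300 coding bases: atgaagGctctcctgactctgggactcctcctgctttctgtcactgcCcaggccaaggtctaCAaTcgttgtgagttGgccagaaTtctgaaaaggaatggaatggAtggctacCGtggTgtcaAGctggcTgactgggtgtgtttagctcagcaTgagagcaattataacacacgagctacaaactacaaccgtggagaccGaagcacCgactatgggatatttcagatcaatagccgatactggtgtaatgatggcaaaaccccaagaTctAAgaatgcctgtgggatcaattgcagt
Lyz2, first 300 coding bases: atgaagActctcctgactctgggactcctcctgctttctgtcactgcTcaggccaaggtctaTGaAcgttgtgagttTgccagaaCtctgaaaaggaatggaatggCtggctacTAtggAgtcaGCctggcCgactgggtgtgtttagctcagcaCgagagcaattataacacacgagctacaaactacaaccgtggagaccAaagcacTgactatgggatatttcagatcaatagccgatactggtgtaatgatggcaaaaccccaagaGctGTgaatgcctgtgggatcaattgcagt
The longest run without a difference in the whole coding sequence was 118 bases, shorter than the reads of 150 bases. Over the full transcripts, none of 1114 windows of 150 bases in Lyz1 and none of 1167 in Lyz2 occurred unaltered in the other gene. Reads with mismatches can still be placed on either copy, and how the authors' counting treated them is not given in the sources used here.

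The promoters are alike too. In the 100 bases before the RefSeq starts (GRCm38.p6, minus strand), 8 bases differ, all in the upstream part, and the 50 bases next to the start are the same. The pair is shown because the genes went in opposite directions, with capitals where they differ.
Lyz1, chr10:117292869-117292968: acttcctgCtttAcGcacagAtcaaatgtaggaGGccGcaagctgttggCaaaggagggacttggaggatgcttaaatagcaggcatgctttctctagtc
Lyz2, chr10:117282273-117282372: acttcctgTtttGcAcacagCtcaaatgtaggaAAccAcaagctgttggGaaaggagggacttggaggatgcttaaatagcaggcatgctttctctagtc
Both windows hold the Ets-type motif AGGAAG once, on the reverse strand as CTTCCT near the 5′ end, in a stretch that both genes share. Of 32851 RefSeq promoter windows of the same length 13.8% hold it on either strand. A match is a description of letters and not of binding.

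Lyz2 read 2761, 2445 and 3349 CPM in MyS7KO libraries 1 to 3 and 5747, 5140 and 5085 CPM in S7fl/fl. The highest MyS7KO library stayed well under the lowest S7fl/fl library. Lyz2 fell by 0.90 ± 0.14 on the log2 scale (95% interval -1.20 to -0.60, edgeR quasi-likelihood adjusted p = 0.019), a 1.87-fold lower level. It remained 1 of the most abundant transcripts per length in both genotypes, with a mean of 2165 FPKM in MyS7KO and 4005 FPKM in S7fl/fl. Among protein-coding genes outside the mitochondrial genome it had rank 3, after Cd74 and Apoe, by the mean over the 6 libraries. In MyS7KO alone, H2-Eb1 (3034 FPKM), Fth1 (2313) and Hspa1b (2235) lay above it as well. The Lyz2 difference was much the same at the other times, -0.92 at day 3 and -0.97 at day 7 (females against males), and baseline minus day 3 was 0.02 ± 0.18.

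Lyz1 read 222, 330 and 475 CPM in MyS7KO and 71.4, 66.1 and 141 CPM in S7fl/fl. The lowest MyS7KO library lay above the highest S7fl/fl library, and within each genotype the libraries with Y-linked transcripts were the higher ones. Lyz1 rose by 1.88 ± 0.26 (log2; 95% interval 1.35 to 2.42, edgeR quasi-likelihood adjusted p = 0.00627), to 342 ± 127 CPM from 92.7 ± 41.6 (SD, n = 3 each). With the Y-linked share as a covariate the log2 difference was 1.73. After infarction both genotypes held less Lyz1, 58.6 to 93.3 CPM in MyS7KO and 9.32 to 11.6 in S7fl/fl at day 3, and the log2 difference was 2.86. The baseline difference was smaller than that of day 3 by 0.97 ± 0.32, which did not pass (edgeR adjusted p = 0.878).

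The rise of Lyz1 was small beside the fall of Lyz2 in CPM. Counted as 1 feature, an alternative chosen after seeing the data, both lysozymes together were lower in MyS7KO by -0.76 ± 0.14 (log2), with an edgeR adjusted p of 0.401, so that no gene passed at baseline in that fit. Over the 6 libraries Lyz1 made up 1.23 to 12.4% of the lysozyme CPM. Both calls depended on the libraries and on the shared estimate of spread. Fitted with only the 6 baseline libraries neither passed (edgeR adjusted p = 0.999 for both). Leaving out S7fl/fl library 1 ended both (adjusted p = 0.16 for Lyz1, 0.265 for Lyz2), as did leaving out S7fl/fl library 2 (0.0649 for both). The Lyz2 call also ended without S7fl/fl library 3 (0.064), MyS7KO library 1 (0.478) or MyS7KO library 2 (0.771). Across these fits the log2 difference stayed between 1.57 and 2.32 for Lyz1 and between -1.03 and -0.78 for Lyz2.

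Other genes around the Cre insertion were examined because only MyS7KO carries that segment with its insertion. Within 2 Mb of Lyz2, 28 genes besides the lysozymes were tested. None was called, 3 were higher at an unadjusted p under 0.05 and 0 lower, against 0.846% and 1.42% of all genes tested, and their median log2 difference was 0.03 against -0.03 over all genes. Dyrk2, a protein kinase that acts in the response to DNA damage, had the lowest p of those that did not pass. It read 74.2, 83.5 and 80.1 CPM in MyS7KO and 59.4, 52.0 and 52.2 CPM in S7fl/fl, so the groups did not overlap (log2 0.54 ± 0.12, edgeR adjusted p = 0.626). At day 3 its log2 difference was 0.47 and at day 7 0.25 (edgeR adjusted p = 0.11 and 0.352), the latter between groups that also differed in sex. Dyrk2 lies 1.58 Mb from Lyz2, at chromosome 10, 118855603 to 118870209 (GRCm38). The other pair were the unnamed transcripts 4932442E05Rik (0.59) and Gm10752, which had 3 counts or fewer in some libraries; 4932442E05Rik lies inside Dyrk2 on the opposite strand, and since the counting is not stated to use strand, its reads and those of Dyrk2 cannot be told apart.

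The next named genes with the lowest p-values at a mean log2 CPM of at least 1, 9 higher and 10 lower in MyS7KO, are given as values that did not pass (edgeR adjusted p = 0.999 each). Tlr2, a receptor for bacterial lipoproteins, read 607, 636 and 706 CPM in MyS7KO and 585, 501 and 432 CPM in S7fl/fl (log2 0.36, 95% interval 0.11 to 0.61). Cat, the peroxide-degrading enzyme catalase, read 99.4, 94.4 and 110 CPM against 84.4, 77.3 and 83.3 (log2 0.31, 0.09 to 0.53). For both genes the groups did not overlap, by a margin smaller than the spread among the MyS7KO libraries. Hspa4l, a heat shock chaperone, Ctbp2, a transcriptional corepressor, and Washc4, a subunit of the endosomal WASH complex, had log2 values of 0.56, 0.30 and 0.37 with overlapping groups. Hspa4l was highest in MyS7KO library 2, at 79.1 CPM against 34.7 to 61.3 in the others. The list of immediate early and heat shock genes also summed highest in that library, at 52842 CPM against 37506 to 47866. Cog1 of the Golgi tethering complex stood at 0.29, Zbed4 at 0.44, the Ras GTPase regulator Rasal3 at 0.34 and the adhesion protein gene Cdh1 at 0.86, the last at only 0.855 to 3.41 CPM.

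On the lower side, Cirbp, an RNA-binding protein induced by cold, read 21.9, 21.9 and 25.8 CPM in MyS7KO and 23.4, 43.4 and 40.6 CPM in S7fl/fl (log2 -0.62, 95% interval -1.02 to -0.23). S7fl/fl library 1 lay among the MyS7KO libraries for this gene. Wdr53 read 3.77, 3.43 and 3.96 CPM against 5.74, 5.37 and 5.90 (log2 -0.61, -1.03 to -0.18), with tight groups on either side. The glucose-6-phosphatase gene G6pc3 (-0.39), the glycosyltransferase gene B4gat1 (-0.39), the phosphatase gene Ppm1m (-0.34), Olfm1 (-0.37), Grcc10 (-0.74), Tmem238 (-0.95) and the aspartic protease gene Napsa (-0.55) had separate groups as well. Gpr55, a lipid receptor, was near the detection limit at 0.0991 to 0.206 CPM in MyS7KO and 0.283 to 0.661 CPM in S7fl/fl. Over these genes and Dyrk2, 16 of 20 had groups that did not overlap, where 6.2% of all genes tested did (2.77% higher, 3.43% lower); since they were picked by p, nothing is read from that count.

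The same 20 genes were looked up in the infarct libraries. These were not part of the baseline contrast by which the genes were picked, but they entered the estimate of spread and the mean level required, which Gpr55 met only through them. At day 3, 11 of 20 had the sign seen at baseline, and 1 did so with an unadjusted p under 0.05 (Dyrk2), while Wdr53 had the opposite sign (log2 0.35). At day 7, where the MyS7KO libraries were all female and the S7fl/fl libraries all male, 15 of 20 had the same sign, with an unadjusted p under 0.05 for Dyrk2, Ppm1m (-0.24) and Wdr53 (-0.43). None was called at either time, where 0.0121% of all genes tested were at day 3 and 0.0181% at day 7; at an unadjusted p under 0.05 these shares were 3.59% and 13.1%, the second of which counts differences between the sexes as well. Over all genes tested, the genotype difference at baseline differed from that at day 3 for 0 genes by edgeR's adjusted p (741 at an unadjusted p under 0.05, 4.48%; 0 by DESeq2 and limma-voom) and from that at day 7 for 0 genes (862, 5.21%; 3 by DESeq2, 0 by limma-voom).

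**Figure D3:**
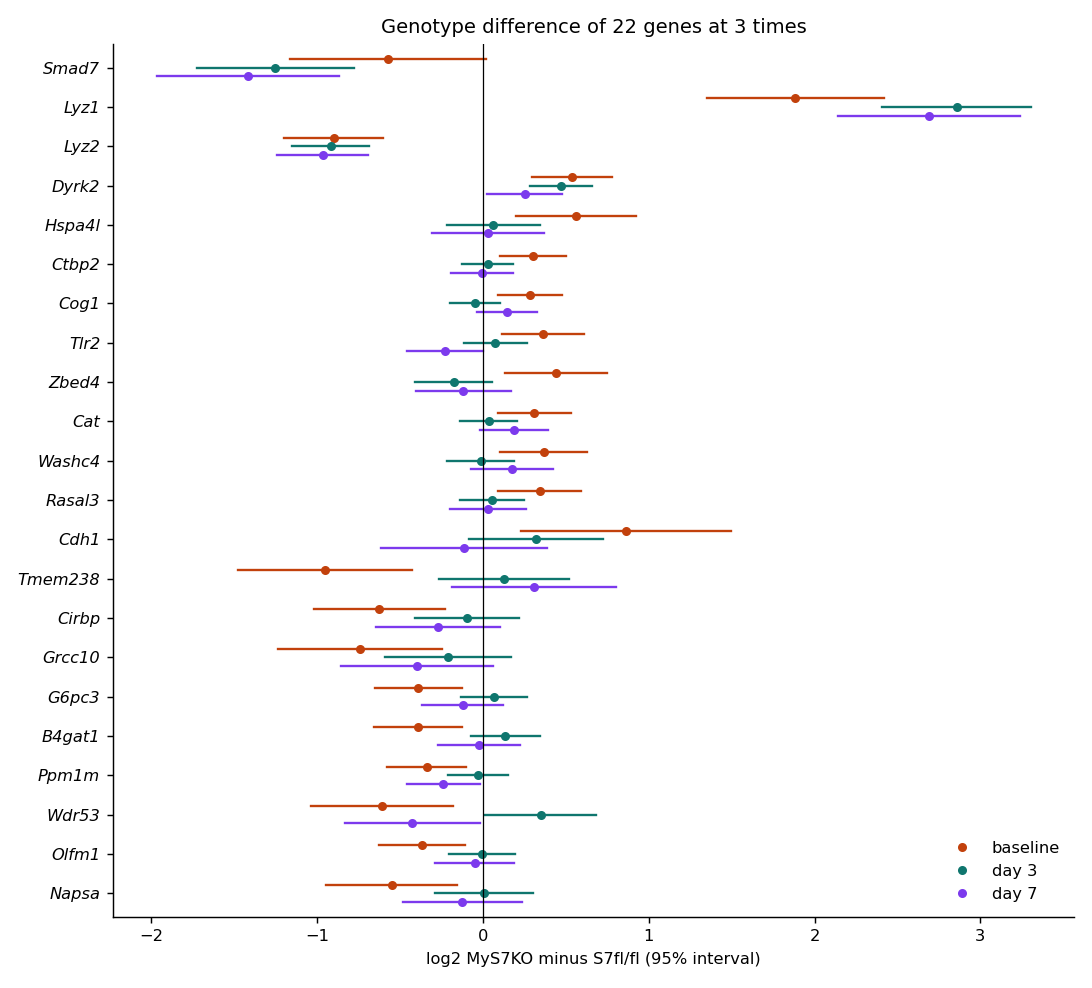
Points are log2 differences of MyS7KO minus S7fl/fl with 95% intervals at baseline (orange), day 3 (green) and day 7 (purple) for Smad7, both lysozymes and the genes with the lowest p at baseline; Gpr55, at too few counts for a fold, is left out. The intervals of Lyz1, Lyz2 and Dyrk2 lie on 1 side of zero at all 3 times. Smad7 is lower at all 3 times (-0.57, -1.25 and -1.42), with a baseline interval that reaches 0.02. Most of the rest sit near zero at day 3, and at day 7 the genotypes also differ in sex.

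The TGF-beta pathway was described through 5 lists, from ligands to response genes, because Smad7 acts on it. Of 75 genes tested, 0 were called, 3 were higher and 1 lower at an unadjusted p under 0.05, against 0.846% and 1.42% of all genes, and the median log2 difference was -0.05 against -0.03 over all genes. For 56 of the 75 the 95% interval lay within 2-fold either way. By DESeq2 and limma-voom none of these genes was among the 2 called.

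Ligands and the proteins that store or free them showed no gene past the test: 0 of 19 had an unadjusted p under 0.05, and their median was -0.13, or 0.07 without MyS7KO library 3. Tgfb1, the main ligand in macrophages, read 247, 221 and 200 CPM in MyS7KO and 223, 315 and 191 CPM in S7fl/fl (log2 -0.13, 95% interval -0.45 to 0.20). Nrros, which anchors latent TGF-beta on macrophages, stood at 0.03 (-0.26 to 0.32) and the activating integrin subunit Itgb5 at 0.04 (-0.18 to 0.26). For these 3 genes the intervals keep a change in either direction under 1.5-fold. Ltbp4, a latent TGF-beta binding protein of the matrix and the list member with the highest FPKM, read 837, 609 and 246 CPM in MyS7KO and 621, 742 and 601 CPM in S7fl/fl. Its low value in MyS7KO library 3 ran with the endothelial and fibroblast sums of that library, and its interval was wide (-1.30 to 0.87).

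Receptors held the gene of the pathway with the lowest p. Tgfbr1, the type I receptor that Smad7 binds, read 219, 227 and 288 CPM in MyS7KO and 215, 152 and 196 CPM in S7fl/fl. The lowest MyS7KO library exceeded the highest S7fl/fl library by a few CPM only (log2 0.38, 95% interval 0.09 to 0.67, edgeR adjusted p = 0.999). Tgfbr2, the type II receptor, read 319, 319 and 325 CPM against 299, 292 and 296 (log2 0.12, -0.12 to 0.36). Its libraries were close together within each genotype, and the difference was small. Cd109, a membrane protein that draws TGF-beta receptors into breakdown, read 4.80, 4.96 and 3.87 CPM against 5.41, 5.15 and 7.44 (log2 -0.41, 95% interval -0.76 to -0.05). Eng, an endothelial co-receptor, again had its lowest value in MyS7KO library 3, 143 CPM against 264 to 370 in the other 5.

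The effector Smads carry the signal to the nucleus, and most had intervals close around zero. Smad2 stood at 0.07 (95% interval -0.12 to 0.27), Smad3 at 0.09 (-0.35 to 0.53) and Smad4, the shared partner, at 0.09 (-0.09 to 0.28). Smad4 read 58.2 to 68.7 CPM over the 6 libraries. Of the 6 Smads none had an unadjusted p under 0.05, and only Smad9, at a mean of 0.17 to 0.21 FPKM, had an interval beyond 2-fold.

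Feedback inhibitors limit the signal at the receptor or in the nucleus. Among 16 tested, Smad7 included, none had an unadjusted p under 0.05 and the median was 0.03 (-0.04 to 0.13 when each library was left out in turn). Skil (SnoN), a corepressor of Smad complexes, was the member with the highest FPKM and read 742, 715 and 770 CPM in MyS7KO and 792, 579 and 498 CPM in S7fl/fl (log2 0.25, 95% interval -0.01 to 0.52). Ski stood at 0.03 (-0.21 to 0.26), the ubiquitin ligases Smurf1 at -0.01 (-0.25 to 0.24) and Smurf2 at 0.18 (-0.07 to 0.42), and the decoy receptor gene Bambi at -0.28 (-0.64 to 0.08). Bambi had separate groups, 14.7 to 15.8 CPM in MyS7KO and 16.8 to 21.8 in S7fl/fl.

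Genes that answer to TGF-beta or BMP were spread on both sides of zero. Of 22 tested, 9 were higher and 13 lower, 2 of the former at an unadjusted p under 0.05, and the median was -0.08, and nearer to zero whichever baseline library was left out (-0.06 at the lowest). Klf10, an early TGF-beta response gene, read 148, 167 and 198 CPM in MyS7KO and 148, 144 and 133 CPM in S7fl/fl (log2 0.27, 95% interval 0.02 to 0.52). Library 1 of both genotypes had nearly the same value. Tgfbi (0.05, -0.25 to 0.34) and Cdkn1a (-0.01, -0.30 to 0.28) were abundant targets with intervals under 1.5-fold either way, and the BMP targets Id1, Id2 and Id3 stood at -0.22, -0.09 and -0.21. Itgae had the other p under 0.05 but was read at no more than 1.91 CPM. Sall1, a transcription factor gene, was at 0.0496 to 0.709 CPM in MyS7KO and 0.599 to 1.12 CPM in S7fl/fl, with as few as 1 count in a library.

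**Figure D4:**
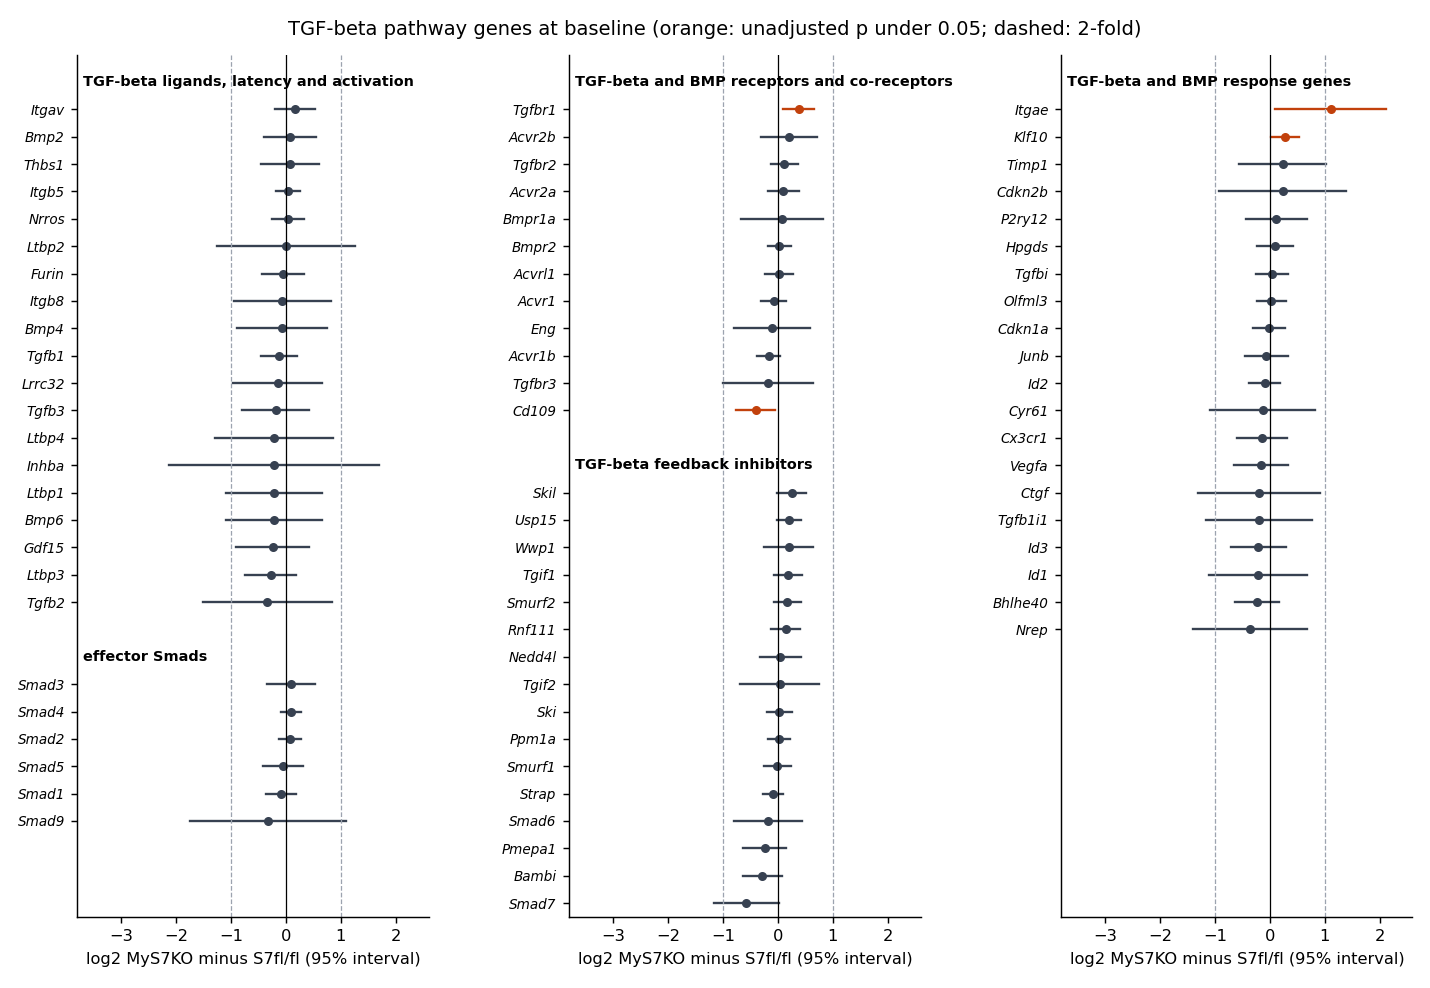
Log2 differences of MyS7KO minus S7fl/fl at baseline (horizontal axis) with 95% intervals for genes of the TGF-beta pathway in 5 lists, sorted by value within each list; orange marks an unadjusted p under 0.05 and dashed lines mark 2-fold. Tgfbr1, Klf10 and Itgae lie to the right and Cd109 to the left, Smad7 is the lowest of the inhibitors, and Sall1, at as few as 1 count, is left out.

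The ErbB family, receptors of EGF-like growth factors, was read mostly at low levels. Erbb2 read 3.32 to 7.48 CPM and Erbb3 1.59 to 2.29 CPM in MyS7KO against 2.72 to 3.29 in S7fl/fl (log2 -0.64, 95% interval -1.25 to -0.02). Erbb4 did not pass the low-count filter. Egfr was the best detected of the receptors, at 26.7 to 49.3 CPM (log2 0.28, -0.47 to 1.04).

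Macrophage state was described through further lists of genes, and over all 21 functional lists 357 genes were tested, counting each once. None was called by edgeR, 5 were higher and 8 lower at an unadjusted p under 0.05 (3.64% against 2.27% of all genes), and for 75.4% the interval lay within 2-fold. Genes of resident cardiac macrophages had a median of 0.02, with none of 19 at p under 0.05. The complement gene C1qa was their most abundant member at 2158 FPKM in MyS7KO and 2320.2 FPKM in S7fl/fl. The mannose receptor Mrc1 read 1837, 1644 and 2284 CPM in MyS7KO and 1829.9, 1335 and 1736 CPM in S7fl/fl (log2 0.23, 95% interval -0.18 to 0.65). Timd4, a receptor for dying cells that marks long-lived resident macrophages, read 77.3 to 108 CPM with overlapping groups (0.03, -0.62 to 0.69). Lyve1, another resident marker, had a wide interval (0.44, -0.57 to 1.45), with S7fl/fl library 1 at 688 CPM and S7fl/fl libraries 2 and 3 at 404 and 442.

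Genes of dying cell uptake had a median of 0.05, and the uptake kinase gene Mertk read 236, 221 and 220 CPM in MyS7KO against 226, 173 and 160 in S7fl/fl (log2 0.27, 95% interval -0.04 to 0.59). Lysosomal enzymes had a median of 0.04, with all 20 intervals within 2-fold. Cell cycle genes stood at -0.05 and glycolysis genes at 0.01, with 21 of 22 and 18 of 19 intervals within 2-fold. Leaving out each library in turn moved the medians of the resident list (-0.11 to 0.14), lysosomal enzymes (-0.06 to 0.13), cell cycle (-0.16 to 0.02) and glycolysis (-0.04 to 0.08) to either side of zero. Matrix genes had a median of -0.09, which was 0.20 without MyS7KO library 3, and only 2 of 17 intervals lay within 2-fold. Their most abundant member, Sparc, read 397, 341 and 202 CPM in MyS7KO and 297, 341 and 399 CPM in S7fl/fl, an order close to that of the endothelial sums.

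Inflammatory mediators had a median of 0.10, with 16 of 22 higher and 1, Tlr2, at an unadjusted p under 0.05. The median depended on single libraries: it was -0.06 without S7fl/fl library 3 and 0.26 without S7fl/fl library 1. The cytokine gene Il1b read 790, 760 and 1203 CPM in MyS7KO and 847, 712 and 690 CPM in S7fl/fl (log2 0.29, 95% interval -0.26 to 0.85). Tnf read 348, 403 and 467 CPM against 374, 377 and 270 (0.25, -0.18 to 0.69). S7fl/fl library 3 was the lowest library for both, and for Ccl2, Ccl4 and Nlrp3 as well. Cd14, the endotoxin co-receptor and their most abundant member, read 1844, 1491 and 2053 CPM against 1452, 1662 and 1218 (0.31, -0.03 to 0.66). Genes of repair and of restraint had a median of 0.05; Hmox1, the haem-degrading enzyme, stood at 0.12 and Clec10a, a lectin receptor, at -0.37 (-0.84 to 0.10).

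Classical monocyte genes had the lowest median of the functional lists, -0.42, with 13 of 14 lower. Of the 14, 3 were lower at an unadjusted p under 0.05 (Napsa, Gsr and Cd177), where 1.42% of all genes tested were, and 6 were lower with groups that did not overlap, where 3.43% were. Leaving out each library in turn gave medians from -0.64, without MyS7KO library 1, to -0.31, without MyS7KO library 2. Plac8 read 31.2, 17.7 and 16.8 CPM in MyS7KO and 46.9, 40.9 and 35.7 CPM in S7fl/fl (log2 -0.91, 95% interval -1.82 to 0.00). Ly6c2, the gene of the Ly6C antigen, read 13.6, 8.18 and 5.80 CPM against 14.7, 21.3 and 10.3 (-0.74, -1.79 to 0.30). Ccr2, the receptor by which monocytes enter tissue, stood nearer to zero at 73.0, 88.3 and 103 CPM against 94.2, 85.6 and 119 (-0.18, -0.54 to 0.19). Fn1, the member with the highest FPKM, stood at -0.05. MyS7KO library 3 held the lowest level of Ly6c2, Plac8, Hp and Fn1.

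Interferon response genes had a median of -0.32, with 21 of 24 lower and 0 at an unadjusted p under 0.05. Without S7fl/fl library 2 the median was -0.07. The list summed to 2388 CPM in that library and to 1638 to 1835 CPM in the other 5. The regulator gene Irf7 read 49.9, 43.0 and 42.4 CPM in MyS7KO and 55.4, 111 and 47.8 CPM in S7fl/fl. The surface protein gene Bst2 read 101, 89.6 and 108 CPM against 98.0, 214 and 109. In both cases S7fl/fl library 2 stood far above the other libraries of its group, which lay near the MyS7KO values. The same library was highest for Cd74, the chaperone of MHC class II molecules, at 12226 CPM against 7249 to 8715 in the other 5. Among protein-coding genes outside the mitochondrial genome, Cd74 was the most abundant per length. MHC class II genes had a median of -0.05, or 0.08 without S7fl/fl library 2, and H2-DMb2 was their member with the lowest p, at 7.41 to 8.97 CPM against 11 to 13.1 (log2 -0.52, 95% interval -0.92 to -0.13). Genes of oxidative phosphorylation had a median of -0.13, or -0.06 without S7fl/fl library 2, with all 31 intervals within 2-fold; their most abundant member Cox4i1 was again highest in S7fl/fl library 2, at 290 CPM against 160 to 215.

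None of the 13 lists of cell type markers, that of macrophages among them, held a called gene. All 11 endothelial and all 10 fibroblast markers were lower in MyS7KO by their estimates, with medians of -0.25 and -0.19, and none had an unadjusted p under 0.05. These medians rested on MyS7KO library 3. Without it they were 0.03 and 0.06, and the sums of MyS7KO libraries 1 and 2 lay within the S7fl/fl range for both lists. The fibroblast median also lay nearer to zero without S7fl/fl library 1. NK cell markers had a median of -0.47, which was -0.04 without S7fl/fl library 1, and the granzyme gene Gzma read 28.8, 16.5 and 17.7 CPM in MyS7KO and 52.0, 24.7 and 28.0 CPM in S7fl/fl. The NK sum was 54.0 to 94.7 CPM against 60.9 to 148, highest in S7fl/fl library 1. B cell markers had a median of -0.47, or -0.21 without S7fl/fl library 1, with Ms4a1 (CD20) at 6.15 CPM in S7fl/fl library 1 and 0.496 to 1.34 CPM in the other 5. All 10 B cell, all 10 NK cell and all 6 T cell markers tested were lower by their estimates. At an unadjusted p under 0.05, 1 B cell and 1 cardiomyocyte marker were lower, where 1.42% of all genes tested were. Neutrophil markers summed to 99.5 to 159 CPM and cardiomyocyte markers to 84.4 to 134 CPM, with overlapping groups. The part of any of these cells in the gene values above was not tested.

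**Figure D5:**
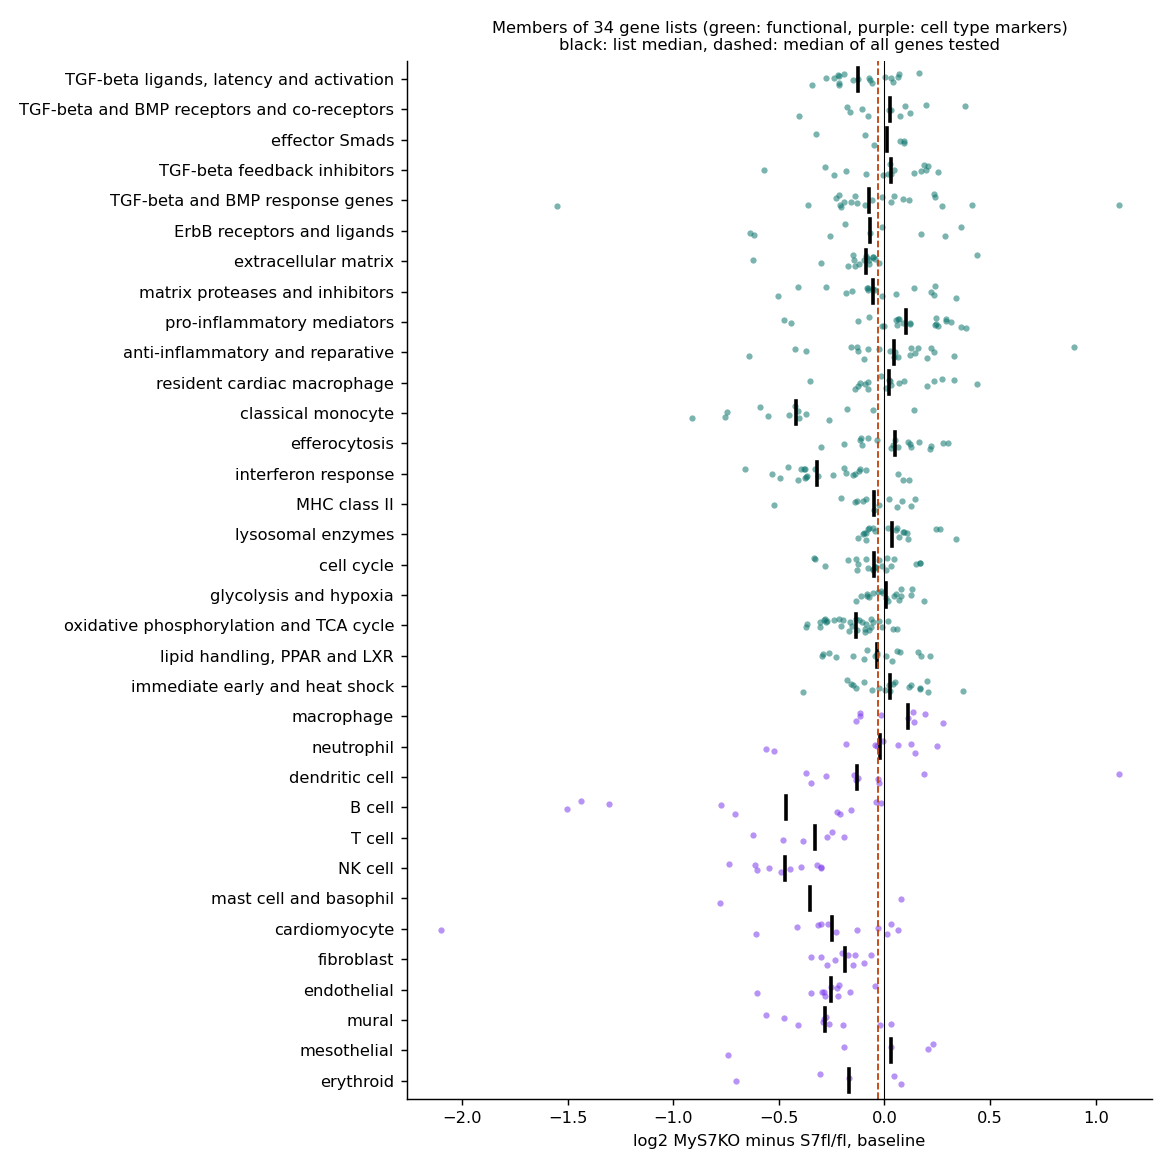
Each point is the log2 difference of MyS7KO minus S7fl/fl at baseline (horizontal axis) of 1 member of a list, for 21 functional lists (green) and 13 lists of cell type markers (purple); points are spread vertically within a row only to separate them. Black bars are list medians, which run from -0.42 for classical monocyte genes to 0.10 for pro-inflammatory mediators among the functional lists (the latter is -0.06 without S7fl/fl library 3), and the dashed line is the median of all genes tested (-0.03).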

How the data were processed

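Poly(A) RNA of Ly6G- CD11b+ cardiac cells was sequenced as 150-base paired reads, per the labels' protocols. The deposited table of read counts per gene holds whole numbers, used as they stand, and the deposited FPKM table holds the authors' values per length. Per the submitters' processing notes, builds mm10 and GRCm38.p6 were used with HTSeq 0.6.1, Cufflinks 2.1.1 and TopHat2 2.0.9, whose roles are not given; nor is strandedness. Of 54532 genes, 16545 passed filterByExpr on the 6 groups. Counts were tested with edgeR 4.0.16 (TMM scaling, robust quasi-likelihood fits, 1 coefficient per group over all 23 libraries), two-sided, with Benjamini-Hochberg adjustment over all genes tested and a threshold of 0.05. After ± stands the standard error for a log2 difference and the SD for a level. Alternatives used DESeq2 1.42.0, limma 3.58.1 (voom with quality weights, or log2(FPKM + 1) and log2(FPKM + 0.1)), other scaling and filters, covariates and each baseline library left out. All within-group pairs of baseline libraries differed beyond counting error, so none was merged.

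The comparison, its gene lists and its tests were chosen with earlier results of these data known. Genes were named by rule: Smad7, both lysozymes and called genes; the 10 higher and 10 lower genes with the lowest p that did not pass, with a mean log2 CPM of at least 1, leaving out predicted, Xist and Y-linked genes; and in each list the member with the highest FPKM and that with the lowest p. Further members were named after their values were seen, and some list members are not reported here. The tests were run first on simulated counts. Sequences came from GENCODE vM21 transcripts and RefSeq promoters.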

Additional observations from a re-analysis of the deposited data

How the results depend on the processing

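The count of 2 called genes at baseline held, 1 higher and 1 lower each time, with RLE scaling, without the low-count filter, with DESeq2, limma-voom, log2(FPKM + 1), log2(FPKM + 0.1), sex as a covariate and the endothelial covariate. It was 0 with only the 6 baseline libraries, 0 with Lyz1 and Lyz2 summed, and 39 (17 higher, 22 lower) on log2(FPKM + 1) without a filter; the cause was not tested. Without each library in turn it ran from 0 to 2. Counting genes called near the Cre locus, which are the same lysozymes, gave 0 with only the baseline libraries and 0 to 2 without each library. The genotype effect at baseline minus day 7 had 3 genes called with DESeq2, where edgeR had 0.

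Whether replicate numbers pair the libraries was left undecided. Residuals of same-numbered libraries correlated at 0.214, -0.0638 and 0.272. Number 3 matched its own number best, number 1 did so only narrowly, and number 2 matched another library better. MyS7KO library 1 correlated at 0.214 with S7fl/fl library 1 and at 0.211 with S7fl/fl library 2. The same-numbered libraries also shared a sex for numbers 1 and 3 but not for 2, and 3 libraries a group are too few to decide. With the replicate block 1 gene was called, Lyz1, and 1 near the Cre locus, the same gene. The Lyz2 call ended in that fit.

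The Lyz2 difference at baseline minus day 3, near zero throughout, turned to -0.0046 without the filter, -0.0681 with limma-voom, -0.113 without MyS7KO replicate 3, and -0.0064 and -0.0115 without S7fl/fl replicates 2 and 3. At baseline minus day 7 it turned to -0.0628 without MyS7KO replicate 3. Hsp90aa1 turned to -0.0026 without MyS7KO replicate 2. Without each library in turn these 3 differences ran from -0.113 to 0.131, from -0.0628 to 0.196 and from -0.0026 to 0.364. Of 643 values of 38 other tested genes, 642 kept their direction and side of the threshold. These genes were picked by their low p at baseline in the same data, and none passed. That selection favours keeping direction and side, so nothing is read from this count. Of 578 list medians 61 moved by more than the spread between replicates.

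With 3 libraries a group the median half-width of the 95% interval was 0.45 (log2). That interval holds for a single gene without adjustment. After adjustment over all genes tested, a gene of median precision needed a larger difference than that to pass. Dyrk2, with a difference above that value and a narrower interval, did not pass.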
